A study of Mus musculus with 8 samples.

Results

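The regions described here carried a peak of acetylated histone H3 (H3ac) on day 4 of mouse embryonic stem cell differentiation and none on day 2 or day 6. They were chosen from the deposited peak lists: every day 4 H3ac peak on chromosomes 1 to 19 and X that shared not 1 bp with a day 2 or a day 6 H3ac peak. There were 3585 such day 4-only regions among 12943 day 4 peaks on these chromosomes, which is 27.7% (95% Wilson interval 26.9 to 28.5%). The other 9358 day 4 peaks were made up of 1091 also listed on day 6, 3597 also listed on day 2, and 4670 listed on all 3 days.

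H3ac was mapped on days 2, 4 and 6, and the histone deacetylase HDAC1 on day 2 alone, by chromatin immunoprecipitation and sequencing (ChIP-seq). The cells were embryonic stem cells of the 129/Ola strain, plated on gelatin and left to differentiate in N2B27, a defined medium without serum; the labels give no treatment that separates the days. HDAC1 was captured through a FLAG tag, and the labels do not say whether the cells of the H3ac libraries carried the tagged protein. Every combination of target and day was sequenced as 1 ChIP and 1 input, 8 libraries in all, so no difference between days has a replicate check and no test between days was possible. Intervals given below are 95% Wilson intervals and cover counting error only; peaks of 1 library are not replicates.

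Acetyl groups on the tail of histone H3 are placed by acetyltransferases and removed by deacetylases such as HDAC1, a catalytic subunit of several corepressor complexes. H3ac is found at the promoters and enhancers of active genes. HDAC1 also occupies many active promoters, so its presence does not mark a silent gene. In defined medium without serum, mouse embryonic stem cells leave pluripotency and many become neural progenitors that express Sox1; such progenitors are patterned along the neural axis by retinoic acid, Wnt, FGF and BMP signals, and Notch signalling holds them in the progenitor state.

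The neural marker genes had peaks on day 4, and their days differed. Counted in the gene and 10 kb on either side, Sox1 had 0, 5 and 0 H3ac peaks on days 2, 4 and 6, Sox2 had 3, 3 and 2, Pax6 had 4, 3 and 1, and Nes had 3, 4 and 0. The pluripotency gene Pou5f1 had 4, 2 and 0, and the mesoderm gene T had 0 on each day. These single genes do not stand for their kind. Of 25 listed pluripotency genes, 20, 10 and 8 had a peak in this window on days 2, 4 and 6. Of 26 mesendoderm genes it was 9, 6 and 3, and of all 21631 protein-coding genes 11962, 11042 and 6745. The peak lists shortened from 17368 peaks on day 2 to 12945 on day 4 and 5553 on day 6, and the lowest listed score was 50 on every day. The part played by these list lengths in the absence of a day 2 or a day 6 peak was not tested.

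The promoters of 6 genes are shown first, because Fat3, Wls, Crabp1 and Id3 carried the 4 best-scoring day 4-only regions with no day 2 or day 6 peak within 10 kb, Polq carried the best-scoring region at a gene that HDAC1 also overlapped, and Vim encodes an intermediate filament protein of neural progenitors. Each line gives the 250 bases that end just before the annotated start, 5′ to 3′ on the gene's strand, from RefSeq on GRCm38.p6, whose coordinates are those of mm10. Capitals mark CpG dinucleotides. Each window was overlapped by a day 4-only region, that of Id3 only at its end next to the gene.
Fat3, chr9:16502055-16502304, minus strand: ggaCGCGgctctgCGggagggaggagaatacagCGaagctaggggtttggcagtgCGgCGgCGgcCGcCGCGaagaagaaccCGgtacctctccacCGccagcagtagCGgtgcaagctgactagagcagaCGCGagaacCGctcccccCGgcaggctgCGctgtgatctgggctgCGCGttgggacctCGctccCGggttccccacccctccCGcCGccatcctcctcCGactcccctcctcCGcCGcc
Wls, chr3:159839400-159839649, plus strand: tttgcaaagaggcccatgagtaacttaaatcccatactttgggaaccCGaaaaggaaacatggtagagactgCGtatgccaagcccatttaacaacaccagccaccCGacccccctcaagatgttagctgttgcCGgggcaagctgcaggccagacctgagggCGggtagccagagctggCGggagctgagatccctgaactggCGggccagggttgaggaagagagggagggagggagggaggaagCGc
Crabp1, chr9:54764498-54764747, plus strand: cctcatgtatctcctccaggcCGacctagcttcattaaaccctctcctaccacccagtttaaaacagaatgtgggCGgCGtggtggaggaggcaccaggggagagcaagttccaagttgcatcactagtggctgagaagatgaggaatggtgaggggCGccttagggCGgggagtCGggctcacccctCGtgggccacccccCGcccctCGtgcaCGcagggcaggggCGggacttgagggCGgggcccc
Id3, chr4:136143572-136143821, plus strand: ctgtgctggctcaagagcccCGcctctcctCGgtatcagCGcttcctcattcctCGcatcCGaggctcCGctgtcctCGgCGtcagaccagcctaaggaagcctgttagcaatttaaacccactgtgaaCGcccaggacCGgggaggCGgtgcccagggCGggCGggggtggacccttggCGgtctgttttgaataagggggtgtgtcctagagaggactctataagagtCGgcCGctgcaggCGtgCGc
Polq, chr16:37011536-37011785, plus strand: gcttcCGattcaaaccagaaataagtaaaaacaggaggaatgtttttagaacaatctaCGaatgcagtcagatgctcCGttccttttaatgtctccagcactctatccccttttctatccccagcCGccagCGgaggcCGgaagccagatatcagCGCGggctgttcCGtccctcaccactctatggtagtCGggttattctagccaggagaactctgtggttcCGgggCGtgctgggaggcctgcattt
Vim, chr2:13574061-13574310, plus strand: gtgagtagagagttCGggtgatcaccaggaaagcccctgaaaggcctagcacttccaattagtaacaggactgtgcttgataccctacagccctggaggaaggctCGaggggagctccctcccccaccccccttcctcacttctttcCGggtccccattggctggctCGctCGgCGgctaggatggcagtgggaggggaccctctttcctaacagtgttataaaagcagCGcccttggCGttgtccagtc
These windows held 27, 8, 12, 18, 12 and 8 CpG dinucleotides in the order shown. The count observed over that expected from the base composition was 0.88 for Fat3 and 0.38 for Vim, the extremes of the 6. The CpG-poor ones are those of Wls, Crabp1 and Vim, at 0.39, 0.48 and 0.38.

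Over the RefSeq promoter windows available, day 4-only regions stood at promoters with fewer CpGs than other day 4 peaks did. These windows run from 250 bases before a start to 50 after it. Day 4-only regions overlapped 712 of 21020 windows (3.39%), which belong to 647 genes. In the 656 of these windows that no other day 4 peak touched, the median CpG ratio was 0.71. Windows that a day 2 or day 6 peak also touched were not removed from them. The ratio was 0.83 in 5044 windows under other day 4 peaks and 0.29 in 12414 windows with no H3ac peak. A ratio of 0.6 or more was found in 67.4% of the day 4-only windows (63.7 to 70.9%), in 86.1% of those under other day 4 peaks, and in 48.1% of all windows. The 2850 windows with a day 2 or day 6 peak but no day 4 peak lay between, at 77.6% and a median ratio of 0.8. GC content barely differed, with medians of 61.3% in day 4-only windows and 61.7% in those under other day 4 peaks. Promoter windows under day 4-only regions were thus about as rich in G and C as those under other day 4 peaks but held fewer CpGs. These values were not split by peak score.

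Short motifs were searched on both strands of the same 300-base windows, and none of the letter strings contains another. The GC box GGGCGG, read by Sp1, was in 68.9% of day 4-only windows, 67.0% of windows under other day 4 peaks and 46.6% of all windows. The Sox core ACAANG was in 30.0% of day 4-only windows, against 31.7% of windows under other day 4 peaks and 37.8% of all windows; the next values keep this order. The Meis letters TGACAG were in 16.5%, against 14.5% and 18.3%, and the Rbpj letters TGGGAA of the Notch pathway in 23.6%, against 22.5% and 24.2%. The Smad letters GGCGCC, linked to BMP signalling, were in 24.5%, against 23.3% and 15.5%, and the CCAAT box was in 35.7%, against 39.8% and 38.5%. Day 4-only windows and windows under other day 4 peaks were within a few percentage points of each other for each of these 6 motifs.

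**Figure D1:**
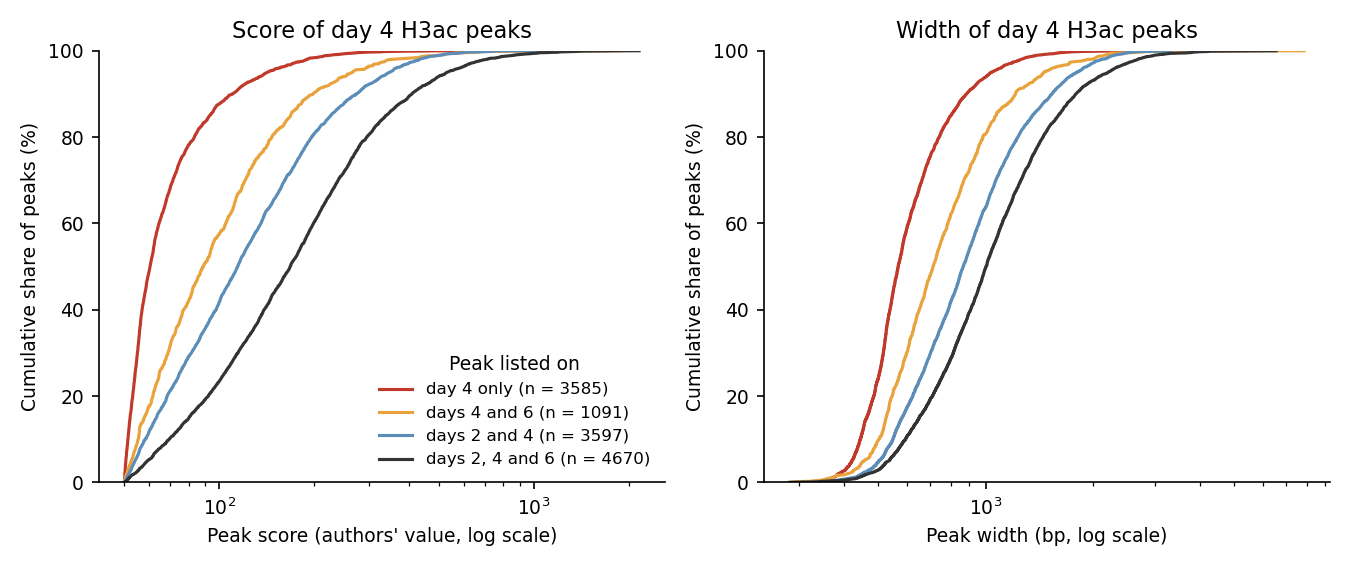
Cumulative share (%) of day 4 H3ac peaks against the authors' peak score (left, log axis) and peak width in bp (right, log axis), 1 curve for each class of day 4 peaks. The curve of the 3585 day 4-only regions lies left of the other 3 classes in both panels, with medians of 60.32 for score and 568 bp for width.

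Most day 4-only regions were narrow and stood near the lower limit of the list. Their median width was 568 bp, with a range of 294 to 3238 bp, against a median of 912 bp for the other day 4 peaks. They covered 2.26 Mb, against 9.63 Mb for the other peaks. Their median score was 60.32 and their highest 585.26, against a median of 133.1 and a highest of 2158.15 for the others. The score is the authors' own value for a peak, on a scale that is not given in the sources used here, and it serves only to order peaks within 1 list.

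Of the day 4-only regions, 1761 (49.1%) scored under 60, against 9.28% of the other day 4 peaks, and 428 (11.9%) reached the median of the whole day 4 list, 101.61. When the list was split by score into 10 equal bins, day 4-only regions made up 71.3% of the lowest bin and 0.927% of the highest, where 12 of them stood. Presence on day 4 alone was thus mostly a property of weak peaks, with a small set of strong ones.

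The rule draws a sharp line through peaks that adjoin. The region at Tnrc6b, with a score of 50.36, lay 2 bp from a day 2 or day 6 peak, and the one at Met lay 4 bp away; both count as day 4 only. The peak at Gm2137, with a score of 90.97, overlapped such a peak by 3 bp and does not count. In all, 83 day 4-only regions lay within 100 bp of a day 2 or day 6 peak, and 81 other day 4 peaks overlapped one by under 100 bp.

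The distance to the nearest day 2 or day 6 peak was 21312 bp at the median. A day 2 peak lay within 1 kb of 531 regions (14.8%) and a day 6 peak within 1 kb of 142 (3.96%). No day 2 or day 6 peak lay within 10 kb of 2332 regions, which is 65.0% (63.5 to 66.6%). For 584 regions (16.3%), with a peak of another day within 1 kb, the name transient does not describe the neighbourhood, which was acetylated on another day as well. For the rest, a region missing from a list is one that did not reach the authors' threshold, and its signal on that day is not analysed here.

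**Figure D2:**
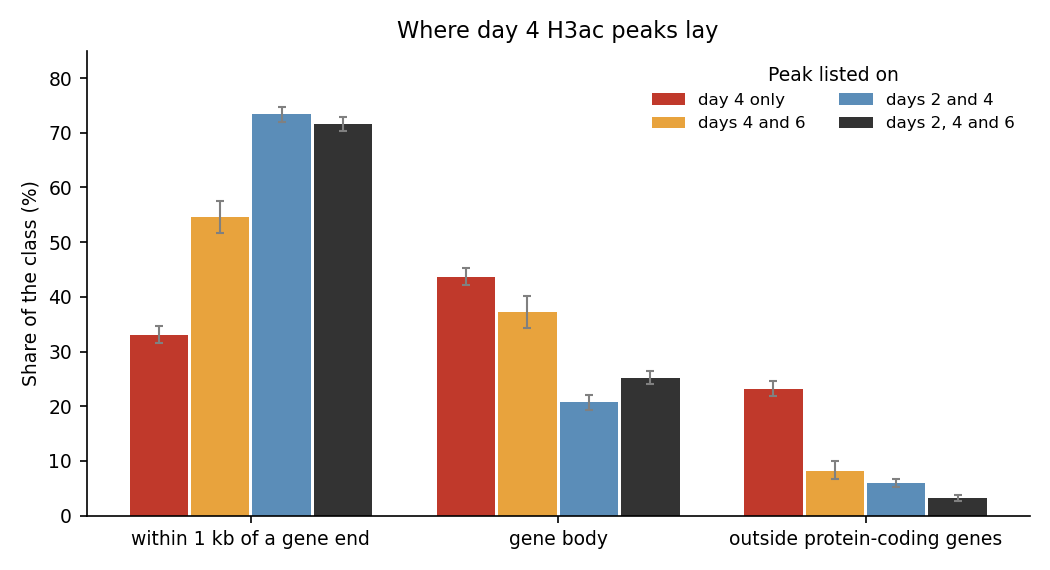
Share (%) of each class of day 4 H3ac peaks that was centred within 1 kb of a protein-coding gene's end (either one), elsewhere in a gene, or outside protein-coding genes, with 95% Wilson intervals as bars. Day 4-only regions had 33.1% at gene ends and 23.2% outside genes, while the 3 other classes had 54.6 to 73.4% at gene ends.

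In the lists as deposited, day 4-only regions lay away from gene ends more often than the other day 4 peaks. The midpoint was no more than 1 kb from either end of a gene coding for protein in 1186 cases, 33.1% (31.6 to 34.6%), against 70.3% of the other day 4 peaks and 60% of all day 4 peaks. Gene bodies held 43.7% of day 4-only regions and 24.9% of the others. Outside protein-coding genes lay 833 of them, 23.2% (21.9 to 24.6%), against 4.82% of the others. RefSeq starts, where the strand is known, did not cover every chromosome. Of the 3476 day 4-only regions on chromosomes with starts, 29.7% were centred within 1 kb of one, against 69.6% of 9097 others. Of 1118 genes that had a day 4-only region at an end and a start in that table, 945 (84.5%) had it at a start.

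The share at gene ends followed the score. Among peaks scoring 50 to under 60 it was 19.6% of day 4-only regions and 65.0% of the others, and among those of 60 to under 80 it was 34.0% and 64.9%. It was 57.4% and 70.7% from 80 to under 120, and 70.9% (65.4 to 75.9%) and 72.4% at 120 and above. Weak day 4-only regions were thus mostly distal, while the 282 strong ones reached gene ends about as often as other strong peaks. Outside genes, the strong day 4-only regions still had 6.38% (4.08 to 9.86%), against 3.05% (2.61 to 3.55%) of the others. When only peaks at or above the day 4 median score entered, the share at gene ends was 66.4% of day 4-only regions and 72.6% of the others. With the same number of top-scoring peaks taken from each day, the day 2 and day 4 lists became shorter. A day 4 peak over a day 2 peak that the cut removed then counted as day 4 only. The share at gene ends was 72.1% of the 866 peaks chosen this way and 72.4% of the others. The 866 thus go beyond the regions of the rule, of which 428 reached the day 4 median score.

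Isolated regions were the more distal ones. Of the 2332 with no day 2 or day 6 peak within 10 kb, 28.1% were at gene ends and 26.6% outside genes. Of the 1253 with such a peak nearby it was 42.3% and 17.0%. This split is not independent of location, since 70.3% of the day 4 peaks shared with day 2 or day 6 were at gene ends. Another day 4 peak, itself shared with day 2 or day 6, lay within 10 kb of 775 day 4-only regions (21.6%). Among peaks within 1 kb of a RefSeq start, 30.4% of day 4-only regions were centred upstream of it (27.7 to 33.3%), against 23.2% of the others. The peaks of days 4 and 6 among these others had 34.4% (30.7 to 38.4%), so the higher share was not confined to day 4-only regions.

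By chromosome, day 4-only regions made up 23.5 to 32.2% of the day 4 peaks of each autosome. Chromosome X had the lowest share, 18.6% (36 of 194 peaks, 13.7 to 24.6%), against 27.8% (27.1 to 28.6%) of the autosomal peaks together.

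The 10 best-scoring regions stood at genes of varied function. The highest, with a score of 585.26, ran for 3238 bp across the end of Fat3 at which transcription starts (chr9:16499621-16502858, mm10). Fat3 encodes an atypical cadherin of developing neurons. This was the widest of all day 4-only regions, and the nearest day 2 and day 6 peaks were 632964 and 1141803 bp away. Wls, which carries Wnt ligands to the cell surface, had a region of 1967 bp over its start (chr3:159839418-159841384, score 462.80), 342909 bp from any day 2 peak.

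Crabp1, a cytosolic binding protein for retinoic acid, had one of 1719 bp over its start with a score of 451.83, and a second one inside the gene with 164.24. Id3, a helix-loop-helix inhibitor induced by BMP, was covered from end to end by a region of 2249 bp with a score of 381.75, and a weaker one of 96.62 lay 8732 bp from the gene. Neither gene had a day 2 or day 6 peak within 10 kb. These strong regions were first listed on day 4, at loci with no listed acetylation nearby on day 2 or day 6.

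Others of the 10 differed in how near a peak of another day lay. Ndnf, a secreted neurotrophic factor, had a region scoring 343.69, 91478 bp from any day 2 peak, and Polq, the DNA polymerase theta of end joining, one scoring 326.02. Nuak1, a kinase related to AMPK, had a region scoring 471.46, but a day 2 peak lay 359 bp away, and at Zfp703, a zinc finger corepressor, the region of 329.48 had a day 2 peak at 666 bp. The remaining 2 of the 10 highest lay outside protein-coding genes: one 11685 bp from Ccnl1, with a score of 346.77, and one 160916 bp from Cypt12, with a score of 330.12 and a day 6 peak at 2208 bp. Of the 10 highest, 3 therefore had a peak of another day within 10 kb.

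Further strong regions, named after their values were seen, stood at Slc35f1 (290.34), Klhdc2 (287.96), Tmem202 (276.29), Cby1 (274.06) and Dbn1 (271.04). Cby1 encodes an antagonist of beta-catenin and Dbn1 an actin-binding protein of neurons. Slc35f1 lay 270862 bp or more from any day 2 or day 6 peak, while at Klhdc2 a day 2 peak was 514 bp away. The 20th in rank, at 359 bp from Smad3, a signal transducer of the TGF-beta pathway, scored 266.02 with a day 2 peak at 106 bp. Taking the 358 best-scoring regions, 245 (68.4%) were at gene ends and 201 (56.1%) had no day 2 or day 6 peak within 10 kb.

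**Figure D3:**
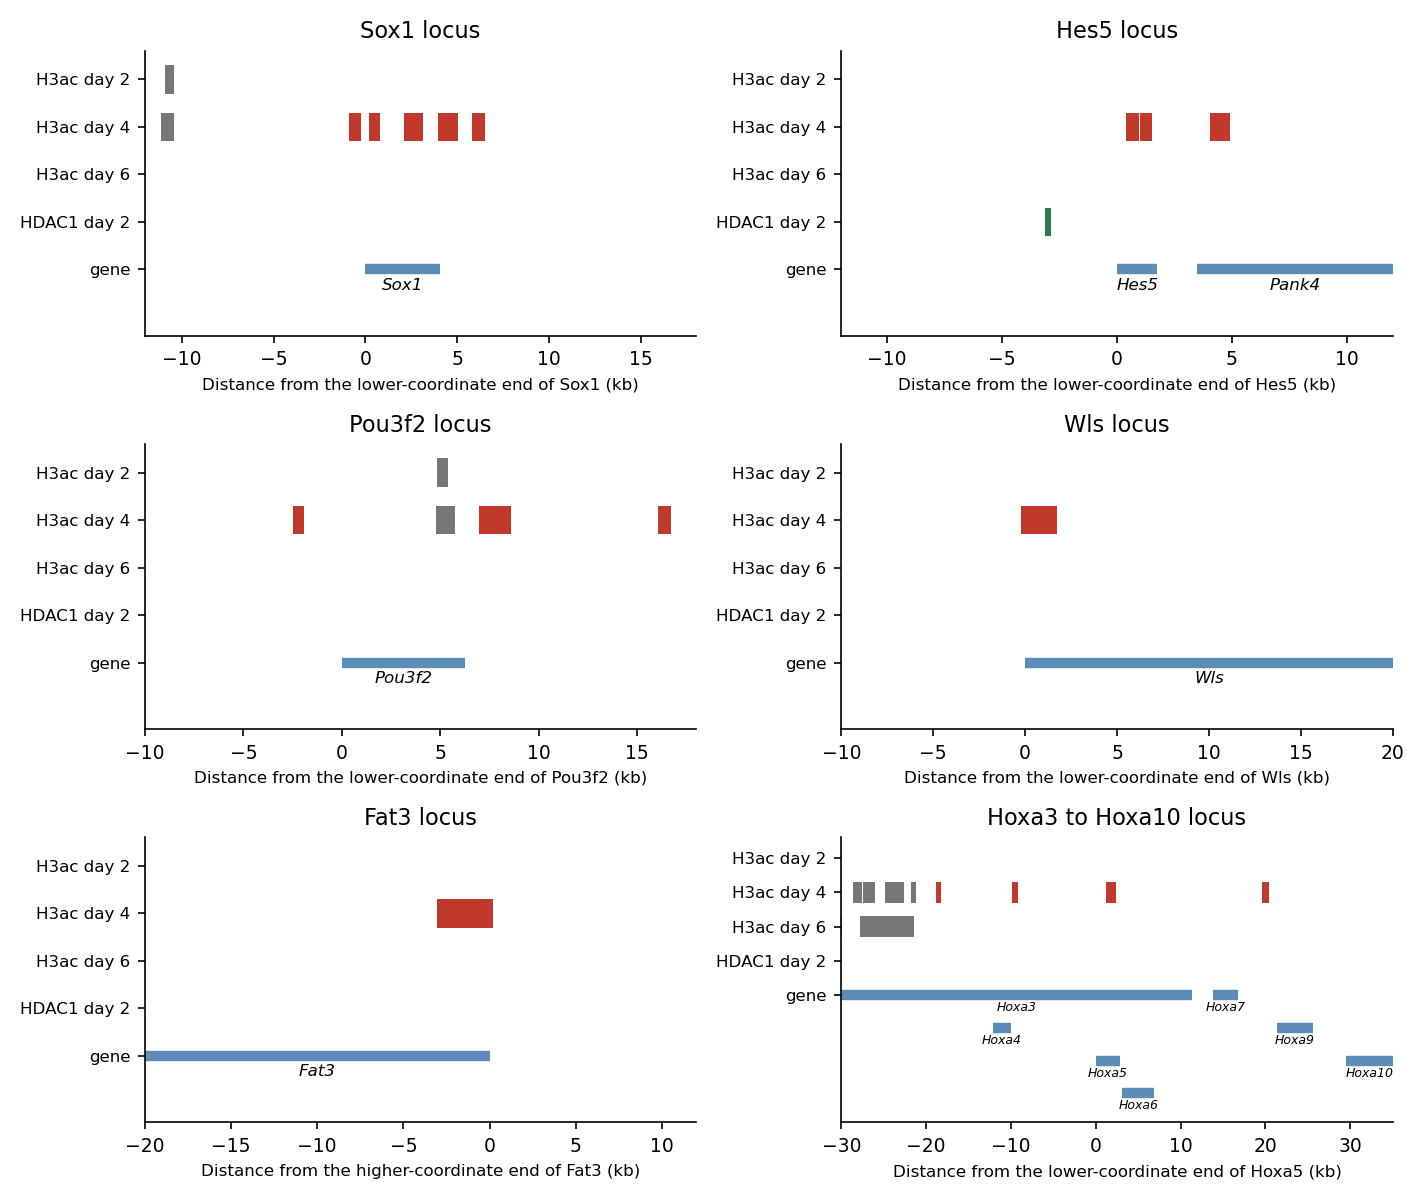
Positions of listed peaks at 6 loci, in kb from an end of the gene named on each axis, with 1 row per library (H3ac of the 3 days, then HDAC1) and genes as blue bars. Red marks day 4-only regions, grey other H3ac peaks and green HDAC1; the Sox1 panel holds 5 red regions and no day 6 peak.

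Sox1, an early neural-specific Sox factor, had the group with most regions. Its 5 regions lay between 12394599 and 12402003 on chromosome 8, within 7405 bp, with scores of 77.08, 61.89, 181.29, 95.84 and 72.27 along the chromosome. The gene itself spans 12395519 to 12399555, so regions lay on both sides of it and inside it. The nearest day 2 peak was 9472 bp from the first region, and the nearest HDAC1 peak was 49883 bp from the last. A further region with a score of 164.07 lay 30741 bp from the gene, in the noncoding gene Sox1ot, and 3 more between 12501217 and 12504839 formed a group of their own with an HDAC1 peak but no protein-coding gene within 10 kb. Sox1 acetylation was thus listed on day 4 over a stretch longer than the gene.

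Counting by gene, 5 regions in or within 10 kb was the highest number, and 5 genes reached it: Sox1, Sox6, Shroom3, Ankrd44 and Rbms1. Sox1 is 4037 bp long and the other 4 span 213688 to 569905 bp, so the spacing differs widely. Shroom3, an actin-binding protein that bends the neural plate, had its strongest region at 1 end with a score of 245.36, 1142 bp from a day 2 peak, and 4 weaker ones of 52.75 to 104.22. Ankrd44 had scores of 51.7 to 106.92, and Rbms1, a gene for an RNA-binding protein, 53.48 to 69.8, in both cases spread along the gene. Sox1 and Sox6 were the 2 of these 5 with no H3ac peak of another day in or within 10 kb of the gene.

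Groups of day 4-only regions were few. When regions no more than 10 kb apart were joined, 25 groups of 3 or more held 81 regions, 2.26% (1.82 to 2.80%). Among the other day 4 peaks it was 15.2%, and among all day 4 peaks split this way 11.6%. The others are more numerous and so lie closer together, with a median gap of 53.5 kb, against 262.5 kb between day 4-only regions. The 3597 peaks of days 2 and 4, which are almost as many, had 5.20% in such groups. Day 4-only regions thus stood alone more often than a class of about the same size. Of the 866 peaks chosen from equal numbers of top-scoring peaks per day, 0.346% were in such groups.

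Of the 25 groups, 9 had a gene of the 18 lists of neural patterning and signalling genes within 10 kb, and 12 groups had no day 2 or day 6 peak within 10 kb. The same counts are not given for groups of the other day 4 peaks, so 9 of 25 cannot be read as an excess. After Sox1, the groups with most regions were 4 at Med16, R3hdm4, Kiss1r and Arid3a, 4 inside Sox6, 4 at Tradd, Fbxl8 and Hsf4, and 4 at Grasp and Nr4a1. Sox6 encodes a SoxD factor of neural and glial progenitors. Its 4 regions lay within 3577 bp near 1 end of the gene, scored 58.84, 50.77, 105.93 and 72.56, and were 57177 bp or more from any day 2 or day 6 peak. Groups of 3, named here after their values were seen, included those at Hes5, Hes7, Pou3f2, Hoxb4, Sfrp2, Efnb2, Irs2 and Foxp1.

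**Figure D4:**
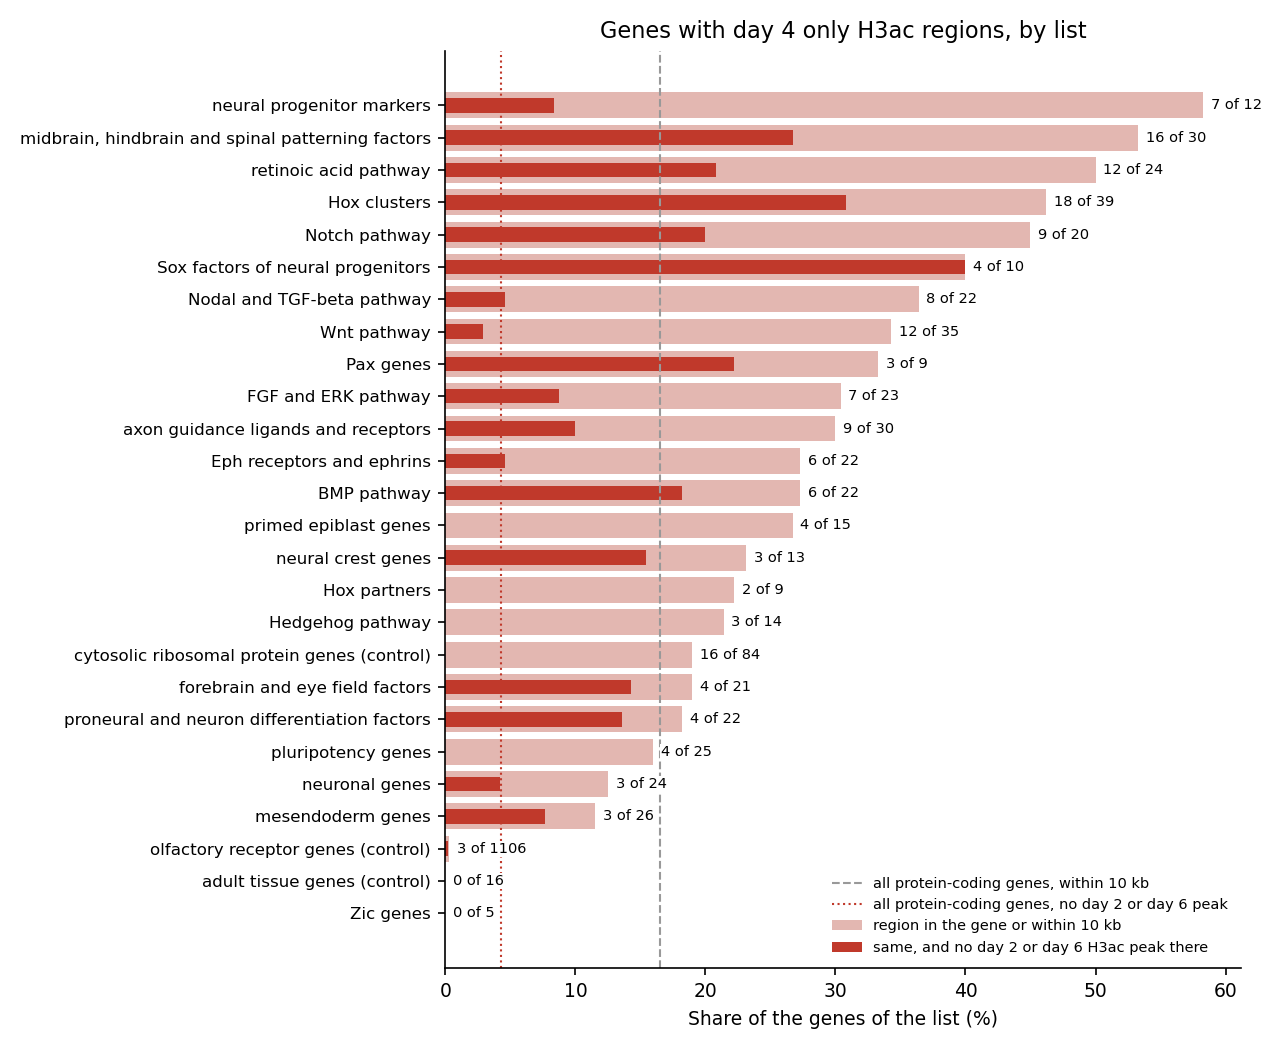
Share (%) of the genes of each list that had a day 4-only region in the gene or within 10 kb (pale bars, with counts), and the share that also had no day 2 or day 6 H3ac peak there (dark bars). The dashed and dotted lines give the same 2 shares over all 21631 protein-coding genes, 16.5% and 4.31%.

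A larger share of neural patterning and signalling genes than of all genes had a day 4-only region. Over all 21631 protein-coding genes, 3571 (16.5%) had a region in the gene or within 10 kb, 1417 (6.55%) had one within 1 kb of an end, and 86 (0.398%) had 3 or more. Of the genes with one at an end, 878 (4.06% of all genes) had no day 2 or day 6 peak at either end. Of the 369 genes in the 18 lists, 130 (35.2%) had a region within 10 kb, 60 (16.3%) had one at an end, and 13 had 3 or more. For 54 listed genes (14.6%) day 4 was the only day with an H3ac peak in or within 10 kb of the gene, against 932 (4.31%) of all genes. The median length of the listed genes was 15.3 kb, against 17.3 kb over all genes.

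The shares were wide apart at each gene length below 100 kb and close above it. Under 5 kb long, 27 of 93 listed genes (29.0%) had a region within 10 kb, against 7.30% of all such genes, and from 5 to 20 kb it was 37.1% against 14.9%. At 100 kb and above it was 36.6% against 32.3%. The lists were drawn up with earlier results of these data known, so these shares describe the listed genes and are no independent evidence.

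Transcription factors that set position along the neural axis are described before signalling genes. In the Hox clusters 18 of 39 genes had a region within 10 kb, and 12 of them had no H3ac peak of another day there: Hoxa5, Hoxa6, Hoxa7, Hoxa9, Hoxa10, Hoxb1, Hoxb4, Hoxb9, Hoxc9, Hoxc10, Hoxd3 and Hoxd4. Neighbouring Hox genes share regions, so these are not separate events. Hoxb4 had 3 regions scoring 58.94, 68.29 and 59.13, and Hoxa5 had 1 of 137.34 inside the gene and 1 of 116.36 at 9156 bp. Hoxa2, a hindbrain gene of the A cluster, had none.

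Midbrain, hindbrain and spinal cord factors had 16 of 30 genes near a region and 8 on day 4 only. Those 8 were En1, En2, Foxa2, Gbx1, Irx6, Msx1, Msx2 and Olig3. Msx1, a BMP-induced homeobox factor of the dorsal neural tube, had a region scoring 122.9 at 1 end. Of the Sox factors of neural progenitors, 4 of 10 had regions and none of the 4 had a peak of another day: Sox1, Sox6, Sox9 and Sox21. Sox21 had 2, with scores of 92.86 and 125.27. Pax genes had 3 of 9, of which Pax3, a dorsal neural tube factor, had regions of 143.96 and 59.87, and Pax2 had 1 of 58.48. Pax6 was the third, with 1 region of 50.85 beside shared peaks.

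By the share within 10 kb, the factors of the front of the brain and of neurons were closer to all genes. Forebrain and eye field genes had regions at 4 of 21, among them Dlx1, Fezf1 and Vax1, and proneural and neuron differentiation factors at 4 of 22, among them Ebf3 and Onecut1. By the share on day 4 only they were not, with 3 of 21 (14.3%) and 3 of 22 (13.6%), against 4.31% of all genes. Pou3f2, a POU factor of neural progenitors, had regions scoring 60.32, 208.57 and 75.68, but a day 2 peak lay 1590 bp from the strongest. None of the 5 Zic genes had a region. Hox partners of the Meis and Pbx families had 2 of 9, with none at Meis1 or Meis2, whose day 4 peaks were shared with another day.

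Signalling genes differed by pathway. The retinoic acid pathway had regions at 12 of 24 genes, 5 of them on day 4 only: the binding protein Crabp1, the receptor Rarb, and the degrading enzymes Cyp26a1, Cyp26b1 and Cyp26c1. Cyp26a1 and Cyp26c1 are neighbours and share 1 region, scoring 70.14, and Rarb had one scoring 97.5. The Notch pathway had 9 of 20, and its 4 genes on day 4 only were the effectors Hes5, Hes7 and Hey2 and the receptor-modifying enzyme Lfng. Hes5 had regions of 67.03, 57.68 and 96.45, and Lfng 1 of 259.05 at 1 end and 1 of 60.59 inside. The ligand gene Dll1 and the receptor gene Notch1 had none.

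BMP pathway genes had regions at 6 of 22, with 4 on day 4 only: the ligands Bmp7, Gdf6 and Gdf7 and the target Id3. The Gdf7 region, scoring 55.16, lay 8649 bp from the gene and 2170 bp from a day 2 peak beyond the 10 kb flank. Id1, the related target, had none. Wnt pathway genes had 12 of 35, but Sfrp1, a secreted Wnt antagonist with a region of 102.11, was the only 1 of these 12 without a peak of another day; Wls, described above, is not in that list. Likewise Nodal and TGF-beta genes had 8 of 22 with 1 on day 4 only (Tgfbr2), FGF and ERK genes 7 of 23 with 2 (Fgf15 and Fgfr4), Hedgehog genes 3 of 14 with 0, axon guidance genes 9 of 30 with 3 (among them Ntn1 and Unc5c), and Eph and ephrin genes 6 of 22 with 1 (Efna4). Neural progenitor markers had 7 of 12, with Vim alone on day 4 only.

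Lists of other fates had 11.5 to 26.7% of their genes near a region. Pluripotency genes had 4 of 25 near a region and primed epiblast genes 4 of 15, with 0 on day 4 only in either list. Mesendoderm genes had 3 of 26 with 2 on day 4 only (7.69%), neural crest genes 3 of 13 with 2 (15.4%) and neuronal genes 3 of 24 with 1 (4.17%). The neural crest share was close to the 14.6% of the neural patterning and signalling genes. Of the control lists, adult tissue genes had 0 of 16, olfactory receptor genes 3 of 1106, and cytosolic ribosomal protein genes 16 of 84. The ribosomal genes were acetylated on other days as well, and 0 of them had its peaks on day 4 alone. When only regions at or above the day 4 median score were kept, 8.13% of the neural patterning and signalling genes and 2.69% of all genes had one. For the 866 peaks chosen from equal numbers of top-scoring peaks per day, it was 10.3% and 6.22%.

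**Figure D5:**
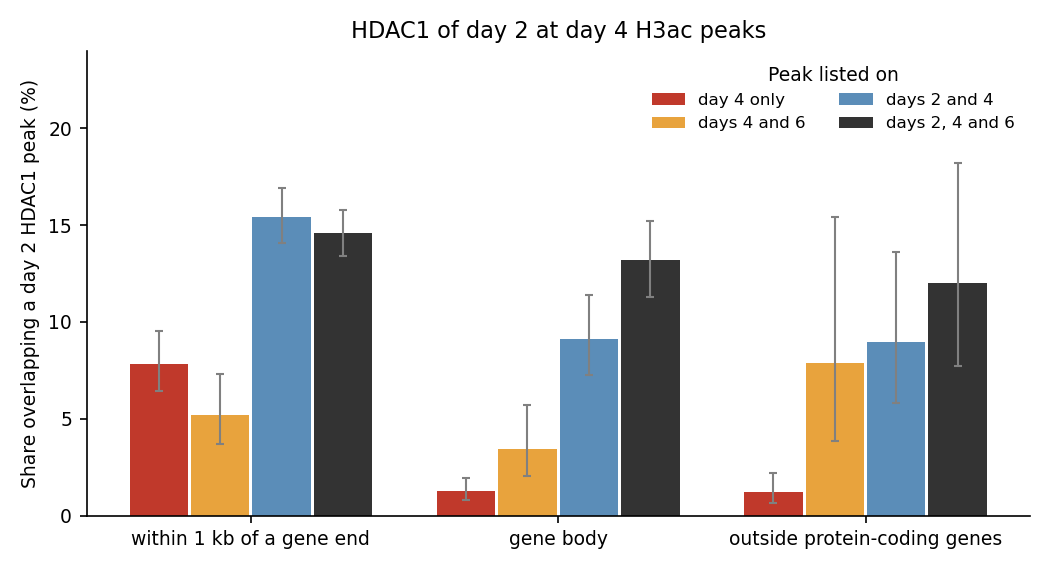
Share (%) of day 4 H3ac peaks that overlapped a day 2 HDAC1 peak by 1 bp or more, by location and class, with 95% Wilson intervals as bars. At gene ends 7.84% of day 4-only regions did so, and in gene bodies and outside genes 1.28% and 1.20%.

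In the lists as deposited, HDAC1, mapped on day 2, overlapped a smaller share of day 4-only regions than of the other day 4 peaks. It overlapped 123 of 3585 regions, 3.43% (2.88 to 4.08%), against 1208 of 9358 other day 4 peaks, 12.9% (12.2 to 13.6%), and 10.3% of all day 4 peaks. The 1091 peaks of days 4 and 6, which also lacked a day 2 H3ac peak, had 4.77% (3.65 to 6.20%), close to the day 4-only regions. Peaks of days 2 and 4 had 13.8% and those of all 3 days 14.2%. Over all locations, the low shares were thus in both classes that lacked an H3ac peak on day 2, the day on which HDAC1 was mapped.

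Of the 123 overlapped regions, 93 (75.6%) were at gene ends. There the share was 7.84%, against 14.1% of the other day 4 peaks. In gene bodies it was 1.28% against 10.2%, and outside genes 1.20% against 9.76%. Peaks of days 4 and 6 had 5.20% at gene ends, 3.45% in gene bodies and 7.87% (3.86 to 15.4%) outside genes. Their closeness to day 4-only regions thus held over all locations together and not at each one. The share with HDAC1 also differed by score. Among gene-end peaks of 50 to under 60 it was 5.80% of day 4-only regions and 7.45% of the others. From 60 to under 80 it was 5.63% and 10.0%, and from 80 to under 120 it was 11.2% and 11.4%. At 120 and above it was 10.5% (6.97 to 15.5%) and 17.0%. Among all peaks at or above the day 4 median score it was 9.58% against 15.6%. For the 866 peaks chosen from equal numbers of top-scoring peaks per day, it was 13.5% (11.4 to 15.9%) against 16.5%. Regions with no day 2 or day 6 peak within 10 kb had 1.80%, and those with one had 6.46%.

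Seen from HDAC1, 125 of 5282 peaks (2.37%) lay on a day 4-only region, and 1357 (25.7%) on any day 4 peak. Of the 125, 114 overlapped no day 2 or day 6 H3ac peak, which largely follows from how the regions were chosen. The best-scoring overlapped regions stood at genes of varied function. After the region near Ccnl1, they were at Polq, at Kdelr1, a receptor that returns proteins to the endoplasmic reticulum (300.25), at Lfng (259.05), and at the sorting nexin Snx1 (258.29). Then came Ogfr, the mitochondrial ribosomal gene Mrpl58, Mthfsd, and Gps2, a subunit of a corepressor complex, with scores of 244.60 to 224.15. Of the genes named here, Lfng was the only 1 in the neural patterning and signalling lists.

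Among listed genes with a day 4-only region, the share with HDAC1 was close to that of all genes with one. Of the 130 listed genes with a day 4-only region, 37 (28.5%) had an HDAC1 peak in or within 10 kb of the gene, against 32.9% of all genes with such a region. The lists spread on both sides of this share. In the Hox clusters it was 3 of 18, at Sox factors 0 of 4 and at Pax genes 0 of 3, while it was 4 of 6 at Eph and ephrin genes, 4 of 7 at neural progenitor markers, 4 of 7 at FGF and ERK genes and 2 of 3 at Hedgehog genes. Notch pathway genes had 3 of 9. HDAC1 lay within 10 kb of 4 of the 25 groups of regions, among them that of Hes5, where it was 3275 bp from the nearest region.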

How the data were processed

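The deposited files were 4 peak lists, 1 per ChIP library. Reads were aligned with Bowtie 0.12.8 to mm10, per the submitters' processing notes. Peak names in the deposited lists begin with MACS; the sources used here give neither its version nor its threshold, nor how the input was used. Each peak has a position and the authors' score, which starts at 50; read depth is not in the lists, and the input libraries were not analysed here. Peaks off chromosomes 1 to 19 and X were left out.

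From these lists, overlaps, distances, groups and shares were computed with Python 3.11.15, pandas 2.3.3 and numpy 2.4.6, and Wilson intervals with scipy 1.17.1; the overlap and counting steps were tested on simulated data. Protein-coding genes came from a RefSeq gene table without strand, so a gene end is either end. Starts and strands came from RefSeq promoter windows, which covered 17274 of 21631 genes and not every chromosome. With 1 library per target and day there is no test. The regions and the 26 gene lists were chosen with earlier results of these data known. Named genes were those nearest the 10 best-scoring regions and the 10 best that HDAC1 overlapped, those at the 5 largest groups, the 10 genes with most regions, up to 6 per list by score, and a set of named regulators; other genes were named after their values were seen, and a few genes that the rule names are not reported here.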

Additional observations from a re-analysis of the deposited data

How the results depend on the processing

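No paired analysis was possible because each target and day had 1 library and no result comes from a test; no library could be left out for the same reason. Limits on score and on list length moved most values. With peaks at or above the day 4 median score, there were 428 regions, 66.4% at gene ends, 9.58% with HDAC1 and 0.701% in groups of 3 or more, with 355 genes at an end, 582 within 10 kb and 8.13% of the neural patterning and signalling genes. With the same number of top-scoring peaks from each day, there were 866 regions, 72.1%, 13.5% and 0.346% by the same measures, then 814 genes, 1345 genes and 10.3%. These 866 take in day 4 peaks over day 2 peaks that the cut removed. Calling a region shared only at 50% coverage gave 4172 regions, 37.0% at gene ends, 4.46% with HDAC1 and 2.97% in groups, and calling it shared when a peak of another day lay within 1 kb gave 3001, 28.3%, 2.33% and 1.97%. Gene-end windows of 0.5 and 2.5 kb gave 19% and 44.5%. HDAC1 within 1 kb gave 6.03%, and HDAC1 peaks at or above their median score 1.73%. Groups joined at 5 kb and 25 kb held 1.73% and 4.94%. Gene bodies alone gave 2321 genes and 23.0% of the listed genes, and flanks of 50 kb gave 6627 and 49.6%. Under each of these settings the share at gene ends and the share with HDAC1 stayed below those of the other day 4 peaks, and the share of listed genes with a region stayed above that of all genes. With equal numbers the gene-end shares were 72.1% and 72.4%. The listed-gene alternatives were chosen after seeing the data. Of 159 named genes, 142 had a region within 10 kb, and 55 had one at or above the median score.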

Other observations

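Outside protein-coding genes, 206 of the 833 day 4-only regions (24.7%) overlapped a noncoding or pseudogene entry of RefSeq, and for 194 of these it was a long noncoding RNA. The same share is not given here for the other day 4 peaks, so it cannot be called particular to these regions. The strongest were the region near Cypt12, in Gm30340, and that near Pou3f2, in Gm30731. From the nearest protein-coding gene, 529 of the 833 lay over 10 kb away and 163 over 100 kb.

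Of 1005 microRNA hairpins in RefSeq, 7 were overlapped by a day 4-only region and 16 had one within 1 kb. Mir330 was among those overlapped, 30244 bp from the nearest day 6 peak and 30514 bp from the nearest day 2 peak. Mir10a, in the Hoxb4 locus, lay within 10 kb of the group of 3 regions there.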
